A study of Mus musculus with 6 samples.

Results

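The FOXO transcription factors *Foxo1*, *Foxo3* and *Foxo4* and 7 genes known as FOXO targets (*Pik3ip1*, *Sesn1*, *Sesn2*, *Sesn3*, *Fbxo32*, *Ccng2* and *Bcl6*) were examined in mouse embryonic fibroblasts undergoing reprogramming. The 10 genes were taken by name out of 54331 genes in the data, and all 10 were among the 15382 genes tested. The fibroblasts were male cells from E13.5 embryos of a mixed C57BL/6, DBA/2 and ICR background carrying an Oct4-EGFP transgene (OE-MEFs), in which EGFP is driven by the *Oct4* promoter and enhancer. Both groups had been transduced with retroviruses for OCT4, SOX2 and KLF4 (OSK) and for AKT-MER, a myristoylated AKT joined to a modified estrogen receptor that responds to 4-hydroxytamoxifen (4OHT). The OSKA + 4OHT group (AKT-activated cells, 3 wells) received 4OHT and the OSKA − 4OHT group (3 wells) received its vehicle, ethanol, and RNA was collected at 10 days postinfection (10 dpi). The wells were plated from transduced cells, so the spread given here is between wells and not between embryos or transductions. Cells with OSK but without AKT-MER were not analysed here. In these data an effect of 4OHT itself and an effect of active AKT therefore cannot be told apart. The paper compared such cells with and without 4OHT by microarray on an earlier day, and it reported that 4OHT had limited effects on expression.

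AKT phosphorylates FOXO proteins, which are then held by 14-3-3 proteins and leave the nucleus, so active AKT lowers their activity at target genes. When FOXO proteins are in the nucleus, they raise genes that restrain growth, slow the cell cycle, promote protein breakdown and turnover of cell contents, and limit PI3K and TORC1 signaling. Much of this control acts on the proteins, and transcript levels of the factors do not measure it.

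Levels are in TPM, a share of reads corrected for transcript length, so that levels of different genes can be set side by side. Each well sums to 1000000 TPM and the number of reads behind a value is not kept, so no counting error can be given. The number of genes with a value above 0 was 15814 to 17692 without 4OHT and 17578 to 18230 with it. The summed level of 7 fibroblast markers was 2713 to 3406 TPM in the OSKA − 4OHT wells and 2032 to 2318 TPM in the OSKA + 4OHT wells, and all 7 were present at a mean of at least 1 TPM. The lower sum came from *Col1a2* (mean 1641 against 901 TPM), the marker of this list that was called, and *Col1a1* (979 against 610 TPM), whereas *Thy1* (179 against 293 TPM), *Dcn* (138 against 185 TPM) and *Fbln1* (7.09 against 14.3 TPM) had higher means with 4OHT. The summed level of 8 markers of pluripotent cells, of which *Dppa3* was listed at 0 throughout, was 12.9 to 15.3 TPM and 52.7 to 66.1 TPM in the same order. Of 7 macrophage markers, all 7 were present, with sums of 122 to 155 TPM and 78.5 to 90.3 TPM. Most of that difference was in *Lyz2* (mean 95.2 against 51.8 TPM), the macrophage marker that was called, while *Cd68* had a higher mean with 4OHT (14.9 against 19.0 TPM). Of 6 endothelial markers, 2 reached a mean of 1 TPM, and the sums were 21.8 to 28.9 TPM and 28.1 to 37.6 TPM. The part of these shifts in cell make-up in the results below was not tested, and in a mixed culture fewer cells of a type and less RNA per cell cannot be told apart.

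Promoter windows of 300 bases, 250 before and 50 after an annotated start (RefSeq sequence, GRCm38.p6), were found for 8 of the 10 genes, as 10 windows, and none was found for *Foxo4* and *Fbxo32*. A pair of letter strings known from FOXO binding elements was searched. The first is GTAAACA, which reads TGTTTAC on the other strand, and the second is CAAAACA, which reads TGTTTTG there, so that they share their last 5 letters. The windows of *Pik3ip1* and *Sesn3* are shown because these genes differed between the groups, and those of *Sesn1* and *Ccng2* because they were the 2 member windows with a match. Capitals mark the match, and all 4 windows are read on the plus strand, at chr11:3330481-3330780, chr9:14276051-14276350, chr10:41810324-41810623 and chr5:93267323-93267622.
Pik3ip1: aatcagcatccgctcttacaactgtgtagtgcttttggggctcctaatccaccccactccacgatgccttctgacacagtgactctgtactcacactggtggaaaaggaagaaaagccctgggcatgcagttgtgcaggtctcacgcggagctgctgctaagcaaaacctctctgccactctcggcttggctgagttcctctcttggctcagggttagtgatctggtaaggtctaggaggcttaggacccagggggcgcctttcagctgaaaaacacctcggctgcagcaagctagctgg
Sesn3: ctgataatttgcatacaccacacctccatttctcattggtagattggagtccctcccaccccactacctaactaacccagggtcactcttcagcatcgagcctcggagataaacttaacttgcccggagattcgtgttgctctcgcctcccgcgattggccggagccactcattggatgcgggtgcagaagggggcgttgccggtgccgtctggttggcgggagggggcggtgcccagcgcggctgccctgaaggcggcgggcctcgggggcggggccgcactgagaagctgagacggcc
Sesn1: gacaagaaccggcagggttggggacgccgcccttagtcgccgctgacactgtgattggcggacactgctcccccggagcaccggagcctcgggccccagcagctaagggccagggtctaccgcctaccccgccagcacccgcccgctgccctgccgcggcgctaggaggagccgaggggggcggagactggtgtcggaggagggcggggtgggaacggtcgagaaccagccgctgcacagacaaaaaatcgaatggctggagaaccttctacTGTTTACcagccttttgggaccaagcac
Ccng2: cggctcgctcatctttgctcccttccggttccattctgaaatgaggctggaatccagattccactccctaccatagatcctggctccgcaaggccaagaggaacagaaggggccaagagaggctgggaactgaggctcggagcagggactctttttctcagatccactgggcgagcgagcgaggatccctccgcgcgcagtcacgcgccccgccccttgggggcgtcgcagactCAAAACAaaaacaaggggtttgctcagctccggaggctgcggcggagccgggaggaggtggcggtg
The *Sesn1* match is GTAAACA on the reverse strand, at base 273 of the window and thus after the start, and a further window at another *Sesn1* start (chr10:41887189-41887488) had no match. The *Ccng2* match is CAAAACA on the forward strand, 16 bases before the start. GTAAACA stood in 3.65% and CAAAACA in 6.28% of all 32851 promoter windows of this length. A match is a run of letters and not a measured site, and the lack of one in these windows says nothing of FOXO binding elsewhere. The windows of *Pik3ip1* and *Sesn3* differed in base composition, with 54.7% G or C and 7 CpG in the former and 62.7% and 22 CpG in the latter.

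With AKT activation, 3 of the 10 genes differed between the groups by limma-trend at a Benjamini-Hochberg adjusted p under 0.05, where 5.49% of all tested genes did. *Sesn3* was higher, 1 of 10 genes against 3.52% of all tested genes called higher. *Pik3ip1* and *Fbxo32* were lower, 2 of 10 against 1.97% of all tested genes called lower. All 3 also differed by more than 2-fold, as 4.23% of all tested genes did. In 5 of the 10 genes (*Foxo1*, *Pik3ip1*, *Sesn2*, *Sesn3* and *Fbxo32*) the wells of the groups did not overlap, which held for 28.2% of all tested genes. The median log2 fold change of the 10 genes was 0.11, beside 0.14 for all tested genes. These genes were chosen with earlier results of these data known, so the shares are given for scale only. Fold changes are on the log2(TPM + 0.5) scale, OSKA + 4OHT over OSKA − 4OHT, which understates differences of low genes. The adjusted p-values come from the limma model across all genes, since 3 wells against 3 are too few for permutation of the wells to reach 0.05 for 1 gene.

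**Figure D1:**
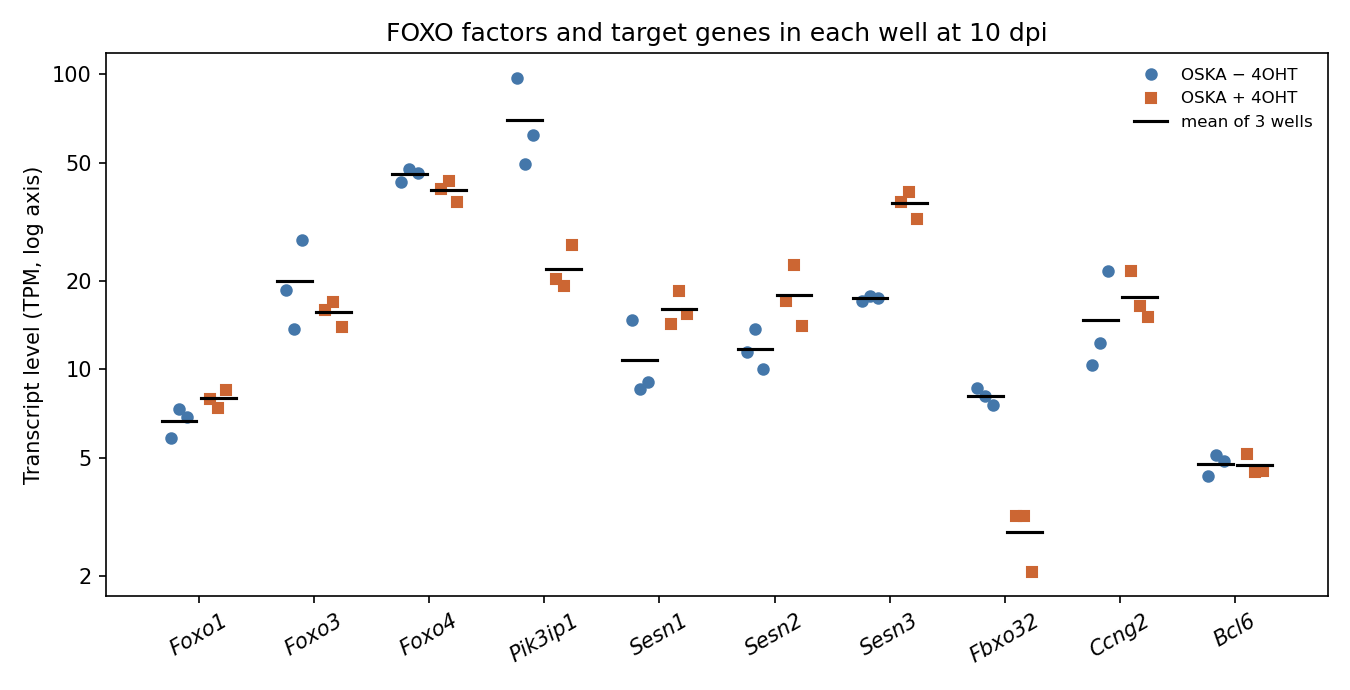
Transcript level in TPM, on a log axis, of each gene in the 3 OSKA − 4OHT wells (circles) and the 3 OSKA + 4OHT wells (squares), with a line at the mean of each group. The groups are widest apart for Pik3ip1 (49.7 to 97.3 against 19.2 to 26.4 TPM) and Fbxo32 (7.59 to 8.68 against 2.07 to 3.19 TPM), and Sesn3 lies higher in every AKT-activated well.

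The transcripts of the factors themselves did not differ between the groups by this test. *Foxo4*, on chromosome X, was the most abundant of the factors, at 43.2, 47.6 and 46.3 TPM in the wells without 4OHT (replicates 1 to 3) and 41.0, 43.6 and 37.0 TPM in the AKT-activated wells. The highest AKT-activated well lay just above the lowest well without 4OHT, so the groups overlapped. Mean levels were 45.7 ± 2.26 and 40.5 ± 3.33 TPM (SD, n = 3 each), with a log2 fold change of -0.17 (SE 0.142) and an adjusted p from limma of 0.545. Without OSKA + 4OHT replicate 3 the estimate was -0.11, and with median-ratio scaling or quantile normalization it was -0.29.

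*Foxo3* was at 18.6, 13.7 and 27.4 TPM in the wells without 4OHT (replicates 1 to 3) and 15.9, 16.9 and 14.0 TPM in the AKT-activated wells. The spread among the wells without 4OHT took in all 3 AKT-activated wells. Without 4OHT the mean was 19.9 ± 6.95 TPM and with it 15.6 ± 1.49 TPM (SD, n = 3 each). The 95% interval of the fold difference was 0.515 to 1.30 (log2 fold change -0.29, limma adjusted p = 0.592). The estimate was -0.037 without OSKA − 4OHT replicate 3 and -0.52 without OSKA − 4OHT replicate 2, and it was -0.45 after quantile normalization.

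*Foxo1* was the lowest of these factors, at 5.84, 7.37 and 6.88 TPM without 4OHT and 7.96, 7.42 and 8.53 TPM with it. Every AKT-activated well lay above every other well, by a margin of less than the spread within either group. Its log2 fold change was 0.24 (SE 0.210, 95% interval 0.832- to 1.67-fold), with a limma adjusted p of 0.564. It was 0.15 without OSKA − 4OHT replicate 1, 0.13 with median-ratio scaling and 0.070 after quantile normalization. *Foxo6*, the remaining FOXO gene, was below the filter, at 0.261, 0 and 0.459 TPM without 4OHT and 1.07, 0.663 and 0.374 TPM with it.

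Summed over the family, FOXO transcripts amounted to 67.9, 68.7 and 81.1 TPM in the wells without 4OHT and 65.9, 68.6 and 59.9 TPM in the AKT-activated wells, so the sums overlapped. *Foxo4* made up 57.1% to 69.3% of the sum without 4OHT and 61.8% to 63.6% with it. *Foxo3* followed with 19.9% to 33.8% and 23.3% to 24.6%, and *Foxo1* with 8.49% to 10.7% and 10.8% to 14.3%. The order *Foxo4*, *Foxo3*, *Foxo1*, *Foxo6* was therefore the same in each of the 6 wells.

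**Figure D2:**
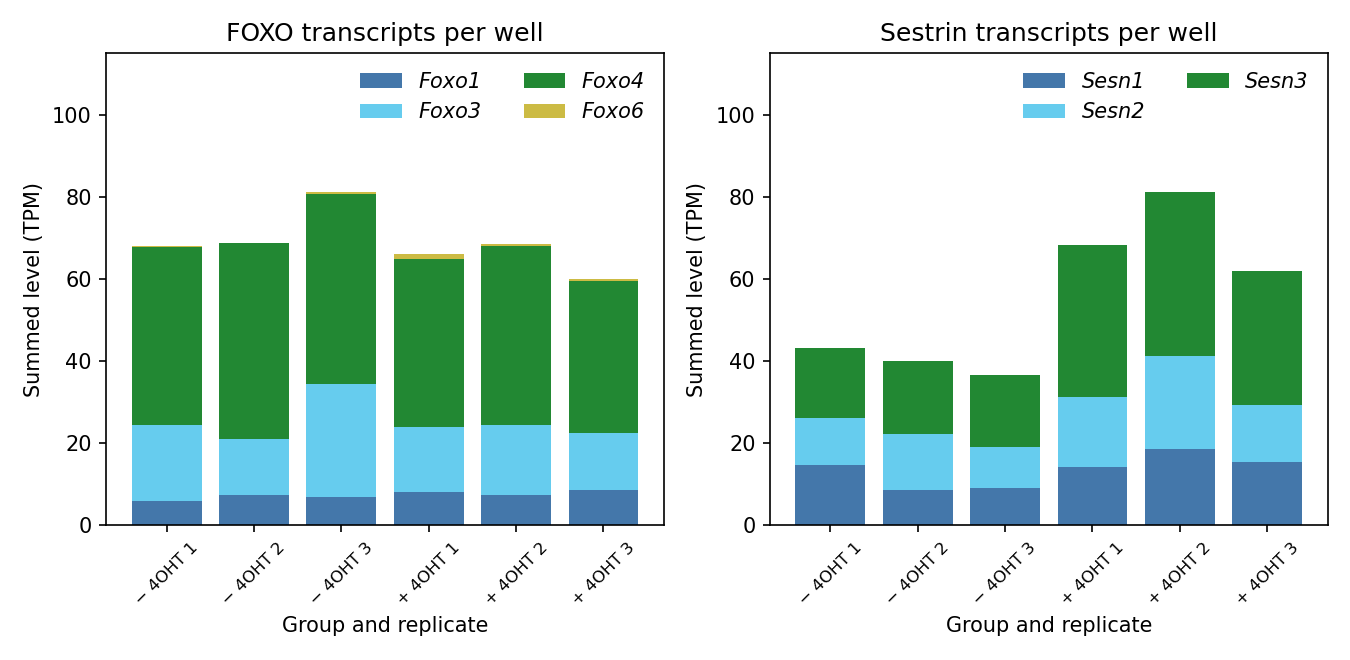
Summed TPM of the FOXO genes (left) and of the sestrin genes (right) in each well, with a bar segment for each gene. The FOXO sums overlap between the groups (67.9 to 81.1 against 59.9 to 68.6 TPM), while the sestrin sums are 36.5 to 43.2 TPM without 4OHT and 61.8 to 81.1 TPM with it.

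*Pik3ip1*, which encodes a membrane protein that binds the catalytic subunit of PI3K and inhibits it, was lower in AKT-activated cells. It was at 97.3, 49.7 and 62.2 TPM in the wells without 4OHT (replicates 1 to 3) and 20.2, 19.2 and 26.4 TPM in the AKT-activated wells. All AKT-activated wells lay below all other wells, and the widest spread was among the wells without 4OHT, where replicate 1 stood highest. The mean was 69.7 ± 24.7 TPM without 4OHT and 21.9 ± 3.87 TPM with it (SD, n = 3 each), a level 3.18 times as high without 4OHT. The log2 fold change was -1.60 (SE 0.281, 95% interval 0.206- to 0.526-fold, limma adjusted p = 0.0298), and 3.37% of all tested genes had a lower log2 fold change. The call was kept without OSKA − 4OHT replicate 2 (adjusted p = 0.0471), but with any other single well left out the adjusted p lay between 0.0528 and 0.114, and without the variance trend it was 0.0539. The direction was the same in all of these fits. *Pik3ip1* lies at chr11:3330401-3342971 on GRCm38 and is protein coding.

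Among the subunits of PI3K, the kinase that PIK3IP1 inhibits and that acts upstream of AKT, 6 of 9 listed genes were tested. By limma, 1 was called higher and 0 lower, where 3.52% of all tested genes were called higher and 1.97% lower. An unadjusted p under 0.05 was found for 3 of the 6, and for 3281 of all 15382 tested genes. The called gene was the regulatory subunit gene *Pik3r3*, at 18.8, 18.2 and 8.38 TPM without 4OHT and 46.4, 55.4 and 72.0 TPM with it (log2 fold change 1.96, SE 0.351, limma adjusted p = 0.0317). Its call was lost with any single well left out other than OSKA − 4OHT replicate 3, at adjusted p-values up to 0.114, and without the variance trend (0.0549). The catalytic subunit genes *Pik3ca* and *Pik3cb*, named after their values were seen, had log2 fold changes of -0.70 and -0.69 and limma adjusted p-values of 0.116 and 0.0821.

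Sestrins are stress-inducible proteins that limit TORC1 activity, in part through binding the GATOR2 complex, and *Sesn3* is a FOXO target known to act in this way. *Sesn3* was at 17.1, 17.8 and 17.4 TPM in the wells without 4OHT (replicates 1 to 3) and 37.0, 40.0 and 32.4 TPM in the AKT-activated wells. The wells without 4OHT were nearly equal, with a coefficient of variation of 2.09%, and every AKT-activated well was far above them. The mean rose from 17.4 ± 0.365 to 36.5 ± 3.80 TPM (SD, n = 3 each), that is by 2.09 times. The log2 fold change was 1.04 (SE 0.158, 95% interval 1.58- to 2.68-fold, limma adjusted p = 0.0191), and 86.7% of all tested genes had a lower log2 fold change. The call was kept without OSKA + 4OHT replicate 3 (adjusted p = 0.0409), whereas with any other single well left out the adjusted p was between 0.0567 and 0.0866. With a replicate block it was 0.101. *Sesn3* lies at chr9:14275067-14333101 on GRCm38.

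The other two sestrin genes were not called. *Sesn2* was at 11.4, 13.7 and 10.0 TPM without 4OHT and 17.1, 22.7 and 14.0 TPM with it, so that the lowest AKT-activated well was just above the highest well of the other group. Its log2 fold change was 0.58 (SE 0.242, 95% interval 0.996- to 2.23-fold, limma adjusted p = 0.239). *Sesn1*, which is also a target of p53, was at 14.7, 8.58 and 9.09 TPM without 4OHT and 14.2, 18.4 and 15.3 TPM with it. Replicate 1 without 4OHT lay among the AKT-activated wells, and the log2 fold change was 0.58 (SE 0.261, 95% interval 0.967- to 2.31-fold, limma adjusted p = 0.268).

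The 3 sestrin genes together amounted to 43.2, 40.0 and 36.5 TPM without 4OHT and 68.3, 81.1 and 61.8 TPM in AKT-activated wells, so the sums did not overlap. *Sesn3* made up 39.5%, 44.4% and 47.6% of the sum without 4OHT and 54.2%, 49.3% and 52.5% with it. The ratio of *Sesn3* to *Sesn2* within a well was 1.30 to 1.73 without 4OHT and 1.76 to 2.31 with it, and that of *Sesn3* to *Sesn1* was 1.16 to 2.07 and 2.11 to 2.60. Whether *Sesn3* differed between the groups by more than *Sesn1* or *Sesn2* was not tested. Among 25 genes of the GATOR complexes and of TORC1 control, all 25 were tested. By limma, 0 were called in either direction, where 5.49% of all tested genes were called. Of the 25, 4 had an unadjusted p under 0.05 (3281 of 15382 over all tested genes), and the median log2 fold change was 0.21.

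*Fbxo32* encodes atrogin-1, the substrate-binding part of an SCF ubiquitin ligase and a FOXO target best known from wasting muscle. It was at 8.68, 8.10 and 7.59 TPM in the wells without 4OHT (replicates 1 to 3) and 3.18, 3.19 and 2.07 TPM in the AKT-activated wells. All AKT-activated wells lay far below the lowest well of the other group. The mean was 8.12 ± 0.544 TPM without 4OHT and 2.81 ± 0.647 TPM with it (SD, n = 3 each), a level 2.89 times as high without 4OHT. The log2 fold change was -1.40 (SE 0.266, 95% interval 0.243- to 0.592-fold), with a limma adjusted p of 0.0377. This call was the least firm of the 3, since it was lost with any single well left out (adjusted p between 0.0757 and 0.113), without a filter on low genes (0.0925) and with a filter at a mean of 5 TPM (0.0589). With a replicate block its limma adjusted p was 0.122.

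Of 6 skeletal muscle markers, *Myod1* and *Myog* were listed at 0 in every well, and the summed level was 0.651 to 10.9 TPM without 4OHT and 0.750 to 0.820 TPM with it, with only *Des* at a mean of at least 1 TPM. *Trim63*, the other ubiquitin ligase gene of muscle wasting, was listed at 0 in 5 wells and at 0.347 TPM in OSKA + 4OHT replicate 3. *Fbxo25*, the closest relative of *Fbxo32*, was at 22.4, 23.3 and 22.8 TPM without 4OHT and 27.5, 26.2 and 21.6 TPM with it, with overlapping groups and a log2 fold change of 0.13 (limma adjusted p = 0.697) that turned to -0.017 after quantile normalization. *Fbxo32* lies at chr15:58175879-58214932 on GRCm38 and has 1 annotated transcript.

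*Ccng2* encodes cyclin G2, an unusual cyclin that slows the cell cycle and is raised by FOXO factors in resting cells. It was at 10.3, 12.3 and 21.5 TPM without 4OHT and 21.5, 16.3 and 15.1 TPM with it. The highest well of each group was at the same level, and the coefficient of variation without 4OHT, 40.4%, was the largest of the 10 genes. For this gene the log2 fold change was 0.31 (SE 0.313, 95% interval 0.735- to 2.09-fold, limma adjusted p = 0.609), and the estimate ran from 0.098 without OSKA − 4OHT replicate 1 to 0.61 without OSKA − 4OHT replicate 3, with 0.19 after median-ratio scaling and 0.14 after quantile normalization. Its relative *Ccng1*, a p53 target, was far more abundant, at 449, 548 and 422 TPM without 4OHT and 377, 321 and 259 TPM with it. These groups did not overlap, the log2 fold change was -0.58 (SE 0.176), and the limma adjusted p was 0.126, or 0.0473 when wells were scaled by median ratios.

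*Bcl6* encodes a transcriptional repressor that directs B cell and helper T cell responses and represses genes through corepressors such as BCOR. It was at 4.37, 5.11 and 4.89 TPM without 4OHT and 5.17, 4.48 and 4.54 TPM with it, the lowest mean level of the 10 genes without 4OHT. The groups overlapped throughout, at means of 4.79 ± 0.383 and 4.73 ± 0.382 TPM (SD, n = 3 each). The log2 fold change was -0.017 (SE 0.235, 95% interval 0.668- to 1.46-fold, limma adjusted p = 0.980), and its sign depended on which wells were included. *Bcl6b* was below the filter, with a highest value of 1.76 TPM. The summed level of the lymphoid markers was 0.511 to 7.88 TPM without 4OHT and 0.436 to 1.29 TPM with it. *Il7r* was above 0 in every well and highest in OSKA − 4OHT replicate 1, at 7.88 TPM, *Cd79a* reached 0.577 TPM, and *Cd3e* and *Rag1* were listed at 0 throughout. Among 12 partners and relatives of BCL6, atrogin-1 and cyclin G, 11 were tested and 0 were called by limma, with 1, *Ccng1*, at an unadjusted p under 0.05, where 5.49% of all tested genes were called and 3281 of 15382 had such a p.

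**Figure D3:**
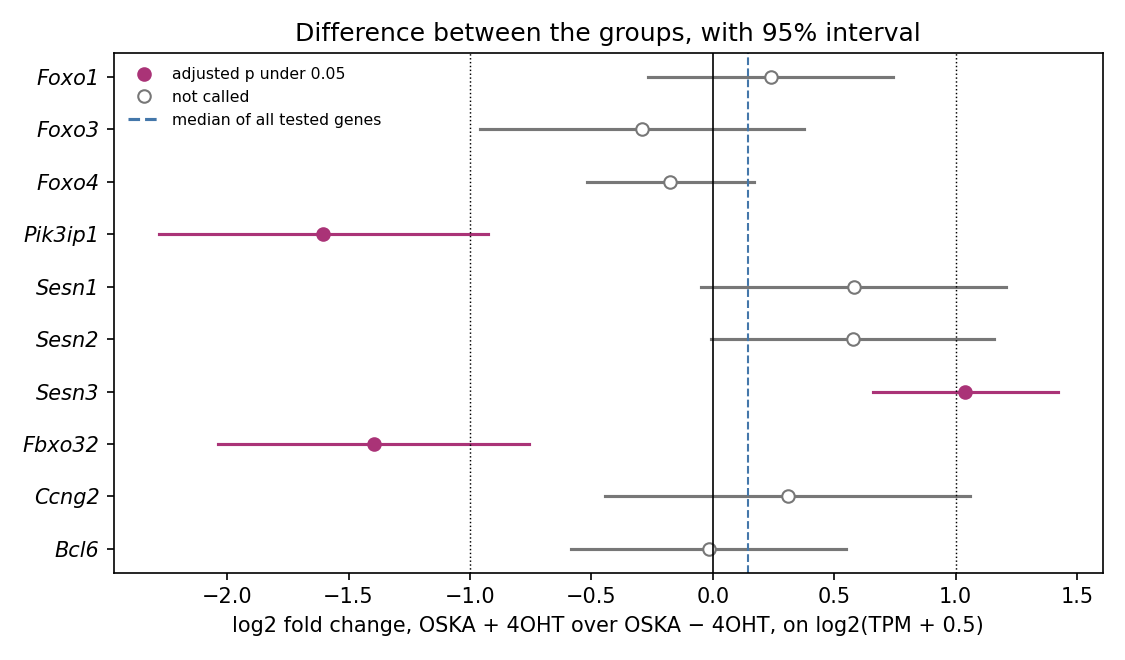
Log2 fold change (OSKA + 4OHT over OSKA − 4OHT, on log2(TPM + 0.5)) of each gene with its 95% interval from limma. Filled points are the 3 genes with an adjusted p under 0.05, dotted lines mark a 2-fold difference, and the dashed line is the median of all tested genes (0.14). The intervals of Sesn1 and Sesn2 end near 0 on their lower side, and that of Bcl6 lies on both sides of 0.

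The order of levels among the 10 genes also differed between the groups. Without 4OHT, *Pik3ip1* had the highest mean, followed by *Foxo4*, and the lowest *Pik3ip1* well (49.7 TPM) was above the highest *Foxo4* well (47.6 TPM). Next came *Foxo3*, *Sesn3*, *Ccng2*, *Sesn2*, *Sesn1* and *Fbxo32*, each of which overlapped the next in its wells, and then *Foxo1* and *Bcl6*, which overlapped neither each other nor their upper neighbour. In AKT-activated cells *Foxo4* and *Sesn3* led with overlapping wells, *Pik3ip1* came next in a run of overlapping genes with *Sesn2*, *Ccng2*, *Sesn1* and *Foxo3*, and *Fbxo32* was lowest, below all wells of *Bcl6*. Within a well, *Sesn3* was at 0.175 to 0.358 times the level of *Pik3ip1* without 4OHT and at 1.23 to 2.08 times its level with AKT activation. The ratio of *Sesn3* to *Fbxo32* was 1.97 to 2.29 without 4OHT and 11.6 to 15.7 with it. These ratios restate the opposite differences of the called genes.

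Further genes known as FOXO targets were set beside the 10 from a list of 42, of which 36 were tested, 1 was called higher, 2 were called lower and 33 were not called, where 3.52% of all tested genes were called higher and 1.97% lower. Their median log2 fold change was -0.20, a difference of -0.34 from the median of all tested genes. Of the 36 estimates, 24 were below 0, beside 6253 of the 15382 over all genes. The list was chosen with earlier results of these data known and was not sorted by whether FOXO proteins raise or lower a gene. Its counts and median are therefore no independent evidence on FOXO targets as a class. In 10 of the 36, no well of one group reached into the range of the other, a share close to the 28.2% of all tested genes. The 6 genes that were not tested had means under 1 TPM, with *Fasl* and *G6pc* listed at 0 in all 6 wells and *Tnfsf10*, at up to 1.23 TPM, the highest.

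The gene called higher was *Bnip3*, a mitophagy receptor gene that is also a target of hypoxia-inducible factors. It was at 36.8, 37.7 and 42.9 TPM without 4OHT and 152, 204 and 146 TPM with it, so that every AKT-activated well was well above every other well. The log2 fold change was 2.07 (SE 0.174, 95% interval 3.14- to 5.60-fold, limma adjusted p = 0.00376), and the call was kept with any single well left out. It was lost with a replicate block (limma adjusted p = 0.0555), though the replicate numbers are not known to pair the wells. The largest called fall was in *Irs2*, the insulin receptor substrate gene whose product links the insulin receptor to PI3K, at 17.9, 19.7 and 15.2 TPM without 4OHT and 6.69, 5.73 and 4.62 TPM with it. Its log2 fold change was -1.56 (SE 0.223, limma adjusted p = 0.0163), and the call was kept without OSKA − 4OHT replicate 3 or OSKA + 4OHT replicate 3 and lost without any other single well, at adjusted p-values up to 0.0687. *Rictor*, which encodes a part of TORC2, the complex that phosphorylates AKT, was the other gene called lower and is named after its values were seen. It was at 14.3, 10.9 and 11.9 TPM without 4OHT and 6.27, 4.70 and 4.87 TPM with it (log2 fold change -1.15, limma adjusted p = 0.0407), and the call was lost with any single well left out (adjusted p between 0.0909 and 0.139) and without the filter on low genes (0.0826).

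Grouped by role, a grouping made after the values were seen, the 5 tested genes of insulin signaling and growth (*Irs2*, *Rictor*, *Eif4ebp1*, *Erbb3* and *Insr*) all had estimates below 0, from -1.56 to -0.42, with 2 called lower. Over all tested genes, 6253 of 15382 estimates were below 0 and 1.97% were called lower, and since the group was formed with its values in view, nothing is read from its count. Of 8 autophagy and mitophagy genes, 1 was called higher (3.52% of all tested genes) and 5 had estimates below 0, with a median log2 fold change of -0.28. None of the 10 cell cycle genes was called by limma or had an unadjusted p under 0.05, and their estimates ran from -0.80 to 0.55. Among them *Cdkn1b*, which encodes the inhibitor p27 and is named after its values were seen, was at 17.9, 15.3 and 24.3 TPM without 4OHT and 32.2, 23.6 and 28.4 TPM with it, with overlapping groups and a limma adjusted p of 0.237. The 4 antioxidant genes, which include *Sod2* and *Cat*, had estimates from -0.18 to 0.015, and likewise none was called or had an unadjusted p under 0.05. Over all tested genes, 5.49% were called and 3281 of 15382 had such a p, so counts of 0 in lists this short set them apart from no other genes.

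**Figure D4:**
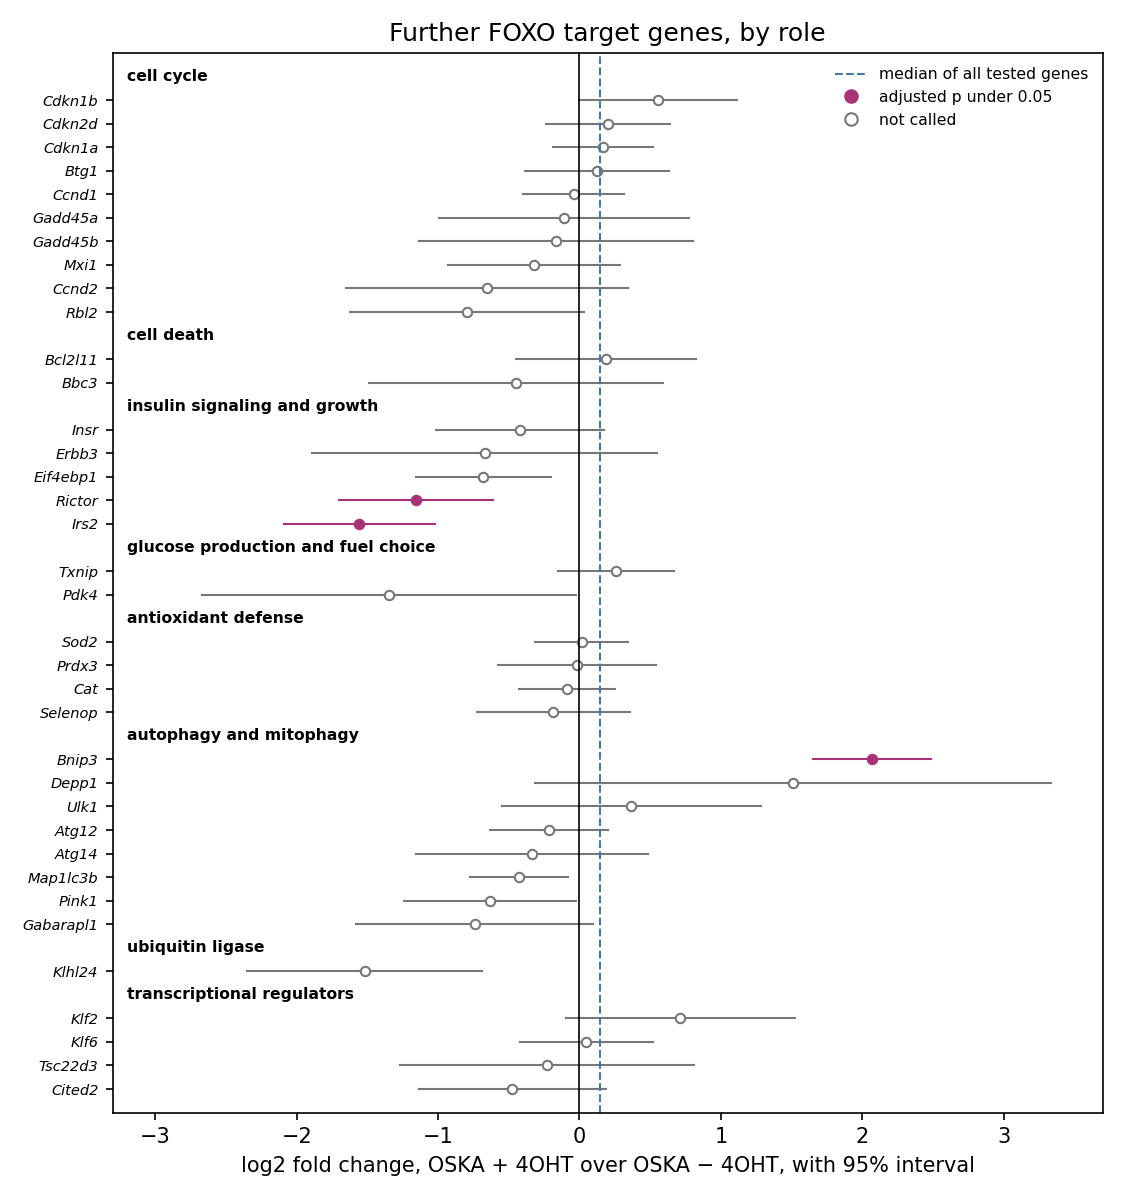
Log2 fold change with its 95% interval for the 36 tested further FOXO targets, grouped by role and sorted within each role. Filled points are Bnip3 (2.07), Rictor (-1.15) and Irs2 (-1.56), which had an adjusted p under 0.05, and the dashed line is the median of all tested genes (0.14).

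The genes that act on FOXO proteins were also listed. Of 32 kinases, phosphatases, 14-3-3 proteins, acetyltransferases and other regulators, 30 were tested. By limma, 1 was called higher and 0 lower, where 3.52% of all tested genes were called higher and 1.97% lower. There were 8 at an unadjusted p under 0.05 (against 3281 of all 15382), and the median log2 fold change was 0.085. The called gene was *Kat2b*, which encodes the acetyltransferase PCAF, at 20.02, 32.8 and 16.1 TPM without 4OHT and 69.5, 63.4 and 79.1 TPM with it. Its log2 fold change was 1.66 (SE 0.277, limma adjusted p = 0.0266), and the call was kept only without OSKA − 4OHT replicate 2 among the fits with a single well left out, with adjusted p-values up to 0.0969 in the others. *Akt1*, named after its values were seen, was at 749, 751 and 653 TPM without 4OHT and 621, 642 and 448 TPM with it, a log2 fold change of -0.35 (limma adjusted p = 0.286). Whether its value holds reads of the AKT-MER transgene, which both groups carried, was not tested.

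*Foxo4*, *Sesn1*, *Sesn2*, *Sesn3* and *Ccng2* had no match of at least 50 bases and 90% identity to a transcript of another gene, and the largest single match was 6.81% of a transcript, in *Foxo1*. *Foxo1* had such matches to at least 241 other genes, as the search kept a limited number of transcripts for each gene. *Fbxo32* had them to 72 genes, each of at most 3.04% of the *Fbxo32* transcript. Among these were genes more abundant than *Fbxo32*, such as *Atp6v0e* (mean 215 TPM) and *Atxn2* (mean 170 TPM). How reads of these stretches were assigned was not tested. Overlapping annotated genes, present for 6 of the 10, were at most at 1.16 TPM in any well.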

How the data were processed

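PolyA RNA from 6 wells was sequenced as 50-base single-end reads on stranded libraries. The authors trimmed the reads with Trim Galore and quantified them with Salmon (versions and annotation release not given in the sources used here), and deposited TPM per gene and well. The authors also deposited the output of their own edgeR comparison, a log2 fold change, a log2 average level, an F score and a p-value per gene, and none of these columns was used.

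TPM keeps no depth, so a count model was not run and precision was judged from the wells alone. Genes whose mean reached 1 TPM were tested with limma-trend (limma 3.58.1, R 4.3.3) on log2(TPM + 0.5), two-sided, with Benjamini-Hochberg adjustment over all 15382 genes, without a block. Calls were made at an adjusted p under 0.05. The code was tested on simulated data. Symbols and positions came from GENCODE M21 (GRCm38), matched by Ensembl identifier, and similar transcripts were searched with BLAST 2.17.0. Tables were handled with Python 3.11.15 and pandas 2.3.3.

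The 10 genes and the lists of further targets, regulators, partners and cell type markers were chosen with earlier results of these data known. Named from each list were the called genes with the largest rise and the largest fall, and the relatives *Foxo6*, *Ccng1*, *Bcl6b*, *Trim63* and *Fbxo25*. Any other gene was named after its values were seen. The alternatives were pseudocounts of 0.1 and 2, no filter, a filter at 5 TPM, median-ratio scaling, quantile normalization, no variance trend, a replicate block and leaving out each well in turn.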

Additional observations from a re-analysis of the deposited data

How the results depend on the processing

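Every member other than *Bcl6* kept the sign of its log2 fold change in the 14 alternative fits, and 0 of the members that were not called became called. *Bcl6* ran from -0.077 to 0.027 with 1 well left out and was not tested with a filter at 5 TPM. The number of members called higher (1, *Sesn3*) was 0 with a replicate block and 0 to 1 with 1 well left out. The number called lower (2) was 1 with no filter, 1 with a filter at 5 TPM, 1 without the variance trend, 0 with the replicate block and 0 to 1 with 1 well left out. Among all genes, 845 were called, 47 with the replicate block and between 175 and 465 with 1 well left out, where fewer wells enter the fit. With the block, *Bnip3* (adjusted p = 0.0555), *Irs2* (0.0811), *Kat2b* (0.115), *Rictor* (0.116) and *Pik3r3* (0.127) were not called either. *Fbxo25* was at -0.017 after quantile normalization. The cause of these shifts was not tested.

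The replicate numbers are not known to pair the wells. Deviations from the group means correlated between wells of the same number at 0.0235, 0.0341 and 0.0837, and 5 of the 6 wells correlated best with the well of their own number, OSKA + 4OHT replicate 1 being the exception.

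Over all tested genes, the median of the log2 fold changes was 0.14, 0.036 with median-ratio scaling and -0.0047 with quantile normalization. Relative to 0.14, *Sesn3* was at 0.90, *Pik3ip1* at -1.75, *Fbxo32* at -1.54 and *Foxo1* at 0.09. The depth of the wells is unknown, and 97 of 5708 genes with a median above 20 TPM were listed at 0 in at least 1 well, so a value of 0 is not evidence of absence.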

Other observations

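Among the regulators of FOXO proteins, the 8 of 30 genes at an unadjusted p under 0.05 (3281 of 15382 over all tested genes) had estimates above 0, as did 9129 of all 15382 estimates whatever their p, and all but *Kat2b* missed the adjusted threshold. The genes named here and in the next paragraph were chosen after their values were seen. Of the 14-3-3 genes, whose products bind phosphorylated FOXO proteins, *Ywhaq* was at 153, 171 and 180 TPM without 4OHT and 265, 245 and 206 TPM with it (log2 fold change 0.50, limma adjusted p = 0.103). *Ywhag* had a log2 fold change of 0.50 (adjusted p = 0.151) and *Ywhaz* of 0.32 (adjusted p = 0.175), and none of these groups overlapped. The other 14-3-3 genes had overlapping groups and log2 fold changes of -0.11 (*Ywhab*), 0.07 (*Ywhae*), 0.04 (*Ywhah*) and 0.10 (*Sfn*). *Xpo1*, which encodes the exportin that carries proteins out of the nucleus, was at 68.9, 58.8 and 68.2 TPM without 4OHT and 99.7, 109 and 82.0 TPM with it (log2 fold change 0.56, adjusted p = 0.107). *Prmt1*, which encodes an arginine methyltransferase that acts on FOXO1, had a log2 fold change of 0.58 (adjusted p = 0.0903). The remaining genes of the 8 were *Skp2* (log2 fold change 1.04, limma adjusted p = 0.0995) and *Stk3* (log2 fold change 0.67, limma adjusted p = 0.133).

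Near the threshold on the side of TORC1 control, *Ddit4*, which encodes the TORC1 inhibitor REDD1, was at 20.02, 22.4 and 22.7 TPM without 4OHT and 47.7, 46.9 and 31.7 TPM with it, the wells not overlapping (log2 fold change 0.92, SE 0.208, limma adjusted p = 0.0589). *Klhl24*, from the list of further FOXO targets, was at 51.4, 40.4 and 28.9 TPM without 4OHT and 11.4, 9.89 and 20.8 TPM with it (log2 fold change -1.52, SE 0.345, adjusted p = 0.0592). GTAAACA stood in 7 of 45 promoter windows found for 35 of the 42 further targets (15.6%) and CAAAACA in 3 of 45 (6.67%). Over all windows the shares were 3.65% and 6.28%. The genes were listed as known FOXO targets, so their shares are not independent of that choice. No match was tested against binding.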
